A study of Mus musculus with 12 samples.

Results

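The pancreatic islets of NOD.B10 mice were compared with a common reference RNA on the 6 arrays labelled NOD.B10 Islet, of 12 arrays in the series. The other 6 arrays carried islets of NOD mice and were used only to show where NOD.B10 islets differed. All 12 animals were female and 12 weeks old, none is given a treatment in the labels, and 1 array was made per mouse, so the replicates were separate animals. NOD mice develop autoimmune diabetes, and NOD.B10 is the strain that the series names as its healthy control. Frozen pancreas was sectioned and stained, and sections of many islets of a mouse were captured with a laser and pooled. The RNA was preamplified, labelled with Cy5 and hybridised against a bought mouse universal total RNA, preamplified in the same way and labelled with Cy3. Every array had the dyes in the same orientation, so an effect of the dye on a probe cannot be told apart from a difference between islet and reference. The reference stood for itself on every array and had no biological spread of its own.

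An islet is a cluster of endocrine cells set in the exocrine pancreas: beta cells make insulin and islet amyloid polypeptide, alpha cells glucagon, delta cells somatostatin and PP cells pancreatic polypeptide. The peptides are made as precursors, cut by prohormone convertases, stored with granins in dense secretory granules and released when the cell is excited. In beta cells the trigger is the metabolism of glucose, which closes potassium channels, opens calcium channels and lets granules fuse with the plasma membrane. A universal reference RNA is a blend from many cells or tissues, so a high ratio of islet to reference marks a gene that holds a larger share of the RNA in the islet than in that blend.

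The value given for a gene is the log2 of net Cy5 (islet) over net Cy3 (reference), where net is the median spot signal minus the median local background in scanner units and nets under 10 were set to 10. Each array was then centred on the median of the genes tested, so 0 is the ratio of the typical gene read in the islet channel and not an equal amount of RNA. Before centring, that median lay between -7.55 and -6.60 on the 6 arrays. For only 18 genes did the uncentred ratio, averaged over the arrays without logs, favour Cy5. Ranks below order these ratios; they do not order the amounts of different mRNAs, which probes of different brightness cannot give. In captured tissue, fewer cells of a type and less RNA per cell cannot be told apart.

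Of 41174 non-control probes, 2034 (4.94%) had Cy5 marked well above background by the scanner on at least 4 of the 6 arrays, and 1658 of them carried a gene symbol. One probe was kept per gene, that with the highest mean net Cy5, which left 1564 genes. Cy5 was well above background on all 6 arrays for 861 of them, and Cy3 for 1555. The islet channel was dim: the median net signal over all values of these genes on the 6 arrays was 21 units in Cy5 and 2850 in Cy3. Of the Cy5 values, 16.9% lay at or under 10. Between 3.96% and 7.88% of the spots of a NOD.B10 array were well above background in Cy5, against 10.7% to 17.3% on the NOD arrays and 47.8% to 54.4% for Cy3 on these 6. The filter keeps genes that the islet channel could read, so a gene missing from islets could not be called lower. At its edge, the 328 genes read on exactly 4 arrays had a median net Cy5 of 11.7 units and a median log2 ratio of 0.04, and the 308 genes read on exactly 3 arrays, just outside, had 9.25 units and 0.45.

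One technical difference came before the results. Mice 1 and 4 lay on slide 2, mice 5 and 6 on slide 3, and mice 2 and 3 on slide 4, which was scanned on another day and held no NOD array. Although the reference was 1 RNA, 40 of the 1564 genes had a Cy3 signal more than 4-fold higher on slide 4 than on the other 4 arrays (4.44- to 88.1-fold, each array scaled on its median), and Rpl8 alone was more than 4-fold lower. Cy5 was higher on slide 4 for all 40 as well. All 40 were among the genes called higher in islets, against 521 of the other 1524 genes (34.2%). Their ratios were 3.38 to 6.27, and they made up 38 of the 75 genes ranked 26 to 100. None was among the 25 highest. The 40 include Plvap and Syn1, described below, and, chosen after their values were seen, Scand1 (Cy3 88.1-fold), Ranbp17 (50.1-fold), Olfr1134 (43.1-fold) and Col2a1 (19.2-fold). All 40 were still called higher without slide 4, and its part in their ratios was not tested.

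**Figure D1:**
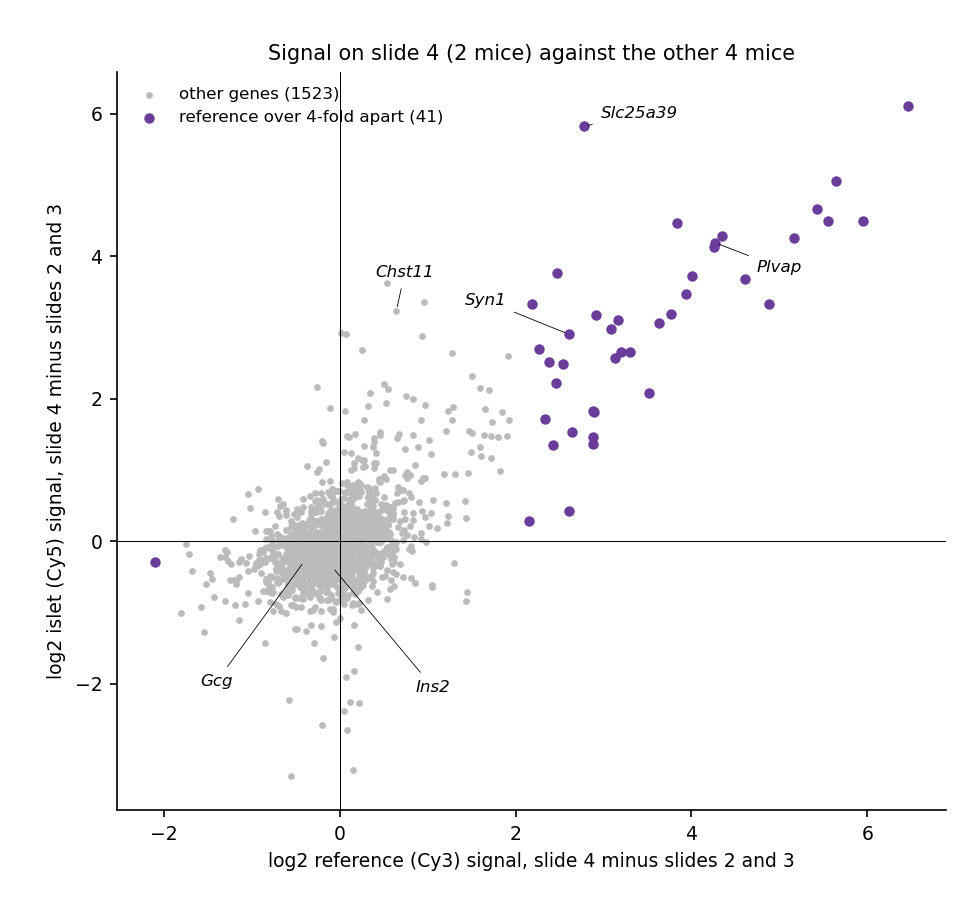
Each point is 1 of the 1564 tested genes; the x axis is the log2 difference in reference (Cy3) signal and the y axis that in islet (Cy5) signal, slide 4 minus slides 2 and 3, after each array was scaled on its median. The purple points are the 41 genes whose reference signal differed more than 4-fold, 40 of them to the right, where the islet signal was higher too; the 1523 grey points gather around 0.

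Against 0, limma's moderated test called 561 of the 1564 genes higher (35.9%) and 564 lower (36.1%) in NOD.B10 islets at an adjusted p under 0.05. At least 2-fold were 377 higher (24.1%) and 332 lower (21.2%). With normexp background correction and loess in place of the net ratio, the split was 790 higher to 132 lower on that method's own zero, where the median gene lay at 0.27. Centred on the median gene like the main values, an alternative added after seeing the data, it was 450 to 394, and 193 to 23 at least 2-fold. Gene values with normexp and loess are given below on the centred scale. The ratio spanned a wide range: its SD across genes was 2.11, while the median SD of a gene over the 6 mice was 0.42. Gene order was much alike in all mice, with Spearman correlations between arrays of 0.859 to 0.931 across the 1564 genes, highest for mice 2 and 3 of slide 4. Genes of an array share the reference, the probes and the filter, so these correlations are descriptions.

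**Figure D2:**
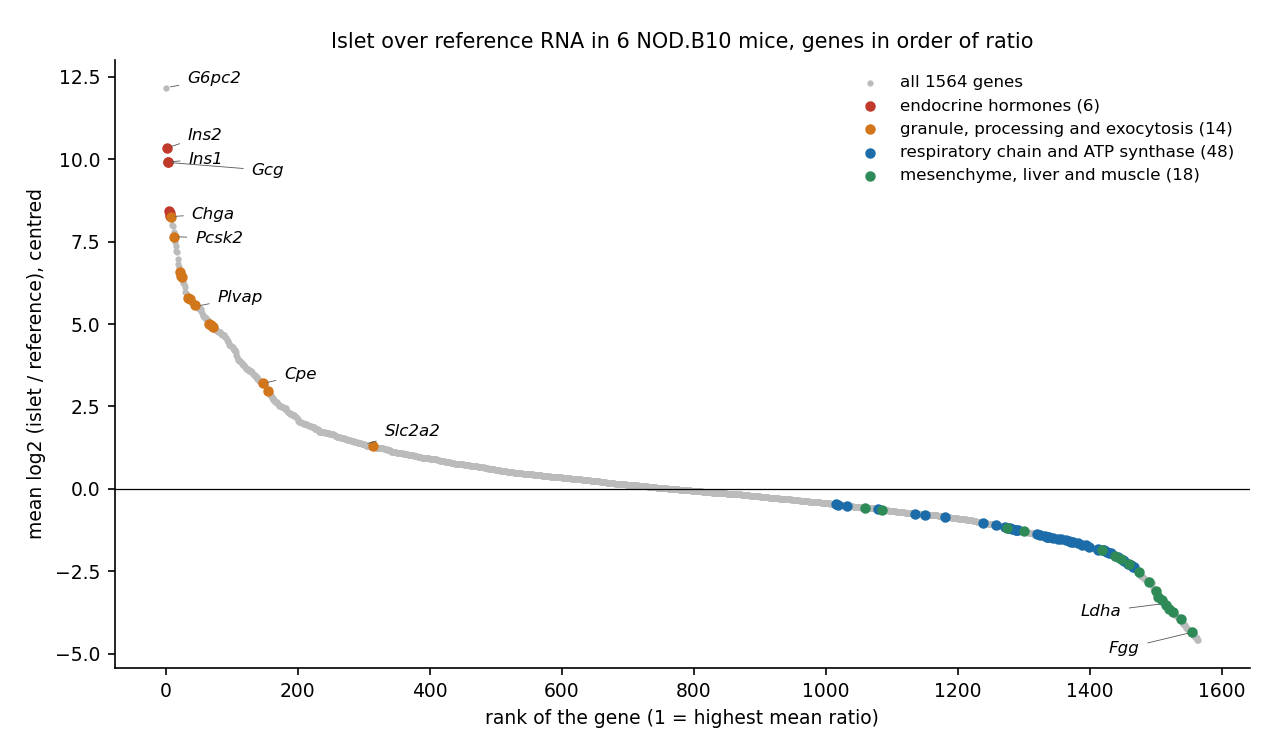
The mean log2 ratio of each of the 1564 genes (y axis, centred on the typical gene) is drawn against its rank (x axis), with the named genes labelled. A short steep arm at the left holds the 65 genes above 5, 9 of them above 8, and the curve then runs slowly down to the 25 genes under -4.

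The endocrine hormones led the ranking, together with G6pc2, which encodes the islet glucose-6-phosphatase and is a known target of autoreactive T cells. G6pc2 had log2 ratios of 11.85 at the lowest (mouse 3), 12.14 at the median and 12.61 at the highest (mouse 5), and ranked 1 in each of the 6 mice. Its net signals were 818 to 3219 units in Cy5 and 37.5 to 50 in Cy3. The mean ratio of 12.17 was 4590-fold that of the typical gene (SE 0.16, adjusted p = 2.44e-14, limma). A dim reference spot makes the size of such a ratio uncertain, and with normexp and loess it was 8.87, rank 6.

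Beta cell products followed. Ins2, the insulin gene that mouse and human share, had ratios of 9.83, 10.23 and 11.10 at the lowest, median and highest mouse, with net Cy5 of 9542 to 24830 units and net Cy3 of 1167 to 1731. Its mean of 10.34 was 1290-fold the typical gene (SE 0.18, adjusted p = 2.93e-13), with mouse 4 of slide 2 lowest and mouse 6 of slide 3 highest. A second Ins2 probe had a mean of 9.26. Ins1, the rodent duplicate of the insulin gene, ran from 9.07 (mouse 2) through a median of 9.84 to 10.98 (mouse 6) and averaged 9.92 (SE 0.21, adjusted p = 1.41e-12). The insulin probes may cross-read each other's transcripts, which are near-identical in coding sequence. Iapp, the amyloid peptide co-secreted with insulin, ran from 7.66 (mouse 1) through 8.22 to 9.01 (mouse 2) around a mean of 8.36 (SE 0.19, adjusted p = 1.86e-12). Its Cy5 on slide 4 was 2.84-fold that of the other arrays and its Cy3 1.60-fold, and without that slide it ranked 9 in place of 6.

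Hormones of the other endocrine cells stood almost as high. Gcg, the glucagon precursor, had ratios of 9.45 (mouse 1), 10.00 and 10.34 (mouse 6) at the lowest, median and highest, and a mean of 9.90, 957-fold the typical gene (SE 0.17, adjusted p = 2.93e-13). Pyy, which encodes peptide YY and is made by several islet endocrine cells, averaged 8.43 (range 7.78 to 8.89, adjusted p = 1.11e-12). Sst, the somatostatin gene, averaged 8.28 (range 7.84 to 8.75, adjusted p = 4.05e-13). Ins2 was never below rank 3, and Gcg and Ins1, which exchanged places between mice, were never below 4 and 5. The means of Pyy, Iapp and Sst differed by less than the SD over mice of any of them (0.29 to 0.51), so their order is not resolved.

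Of the 8 hormone genes, 6 were tested and all 6 were called higher, with a median of 9.17, against 35.9% of all tested genes. Ppy, pancreatic polypeptide, was well above background in Cy5 on only 3 arrays, at a mean of 9.42 units, and missed the filter. Ghrl, the ghrelin gene, was read on no array in Cy5 and on all 6 in Cy3. Together the hormone probes held 10.0% to 19.2% of all net Cy5 of an array, with a median of 15.7%. The 5 markers Ins2, Gcg, Sst, Iapp and Chga were therefore all high in every mouse, as their islet label states.

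To show the DNA just before the start of the leading genes, the 250 bases upstream of the RefSeq transcript start are printed for those with an entry in GRCm38.p6. A set of 3 short motifs known from islet promoters or core promoters was searched on both strands, with overlaps counted: CATCTG, the core of E boxes bound by Neurod1 with its partners, TGACGT, the core of the cAMP response element, and TATAAA, the TATA box. Of 32851 such windows in the table, 14.4% held CATCTG, 6.47% TGACGT and 12.4% TATAAA. The windows, in the order below, are chr19:52264047-52264296 on the plus strand, chr6:142298175-142298424 (plus), chr2:62483654-62483903 (minus), chr16:23890845-23891094 (minus), chr12:102554691-102554940 (plus), chr2:69210823-69211072 (plus) and chr2:69219699-69219948 (plus). Each is written 5′ to 3′ on the strand of its gene, and capitals mark the motif matches.
Ins1: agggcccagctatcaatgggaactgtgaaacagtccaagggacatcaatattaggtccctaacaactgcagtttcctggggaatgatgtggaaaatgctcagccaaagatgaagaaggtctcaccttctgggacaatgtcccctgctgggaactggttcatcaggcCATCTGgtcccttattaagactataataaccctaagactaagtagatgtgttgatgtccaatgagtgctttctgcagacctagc
Iapp: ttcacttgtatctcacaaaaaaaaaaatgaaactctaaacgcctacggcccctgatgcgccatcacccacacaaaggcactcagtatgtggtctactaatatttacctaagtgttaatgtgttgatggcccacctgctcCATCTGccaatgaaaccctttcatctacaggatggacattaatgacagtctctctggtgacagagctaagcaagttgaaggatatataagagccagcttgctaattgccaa
Gcg: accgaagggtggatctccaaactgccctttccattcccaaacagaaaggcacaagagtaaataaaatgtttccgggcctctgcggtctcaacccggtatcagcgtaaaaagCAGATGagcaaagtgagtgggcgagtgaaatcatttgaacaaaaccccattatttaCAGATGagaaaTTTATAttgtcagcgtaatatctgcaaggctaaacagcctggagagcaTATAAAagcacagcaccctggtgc
Sst: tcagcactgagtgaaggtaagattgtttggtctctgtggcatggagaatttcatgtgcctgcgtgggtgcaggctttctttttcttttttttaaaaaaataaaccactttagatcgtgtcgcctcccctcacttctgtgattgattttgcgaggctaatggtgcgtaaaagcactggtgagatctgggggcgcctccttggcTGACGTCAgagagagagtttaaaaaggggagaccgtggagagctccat
Chga: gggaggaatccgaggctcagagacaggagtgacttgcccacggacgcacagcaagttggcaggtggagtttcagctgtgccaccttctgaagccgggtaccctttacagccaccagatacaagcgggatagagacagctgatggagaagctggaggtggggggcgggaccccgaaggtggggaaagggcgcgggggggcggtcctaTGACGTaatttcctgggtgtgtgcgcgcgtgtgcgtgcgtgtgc
G6pc2, first window: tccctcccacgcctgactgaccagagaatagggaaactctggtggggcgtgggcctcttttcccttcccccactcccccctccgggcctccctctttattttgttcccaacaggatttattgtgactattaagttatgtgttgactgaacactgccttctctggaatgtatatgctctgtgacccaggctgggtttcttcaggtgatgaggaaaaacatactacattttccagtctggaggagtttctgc
G6pc2, second window: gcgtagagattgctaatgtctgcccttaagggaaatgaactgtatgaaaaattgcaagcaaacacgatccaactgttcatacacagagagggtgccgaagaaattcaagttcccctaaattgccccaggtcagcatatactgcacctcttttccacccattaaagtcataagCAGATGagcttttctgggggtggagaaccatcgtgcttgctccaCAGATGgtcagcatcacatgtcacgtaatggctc
CATCTG lay in Ins1 84 to 79 bases before the start and in Iapp 111 to 106 bases before it. In Gcg the reverse form CAGATG lay 139 to 134 and 83 to 78 bases before the start, and TATAAA 24 to 19 bases before it, with its reverse form at 72 to 67. The second window of G6pc2 held CAGATG at 78 to 73 and 34 to 29 bases before the start, and the first window held none of the motifs. Sst held TGACGT forward at 48 to 43 and in reverse at 46 to 41, an overlapping palindrome, and Chga held it forward at 44 to 39. A match describes these letters and shows no binding.

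**Figure D3:**
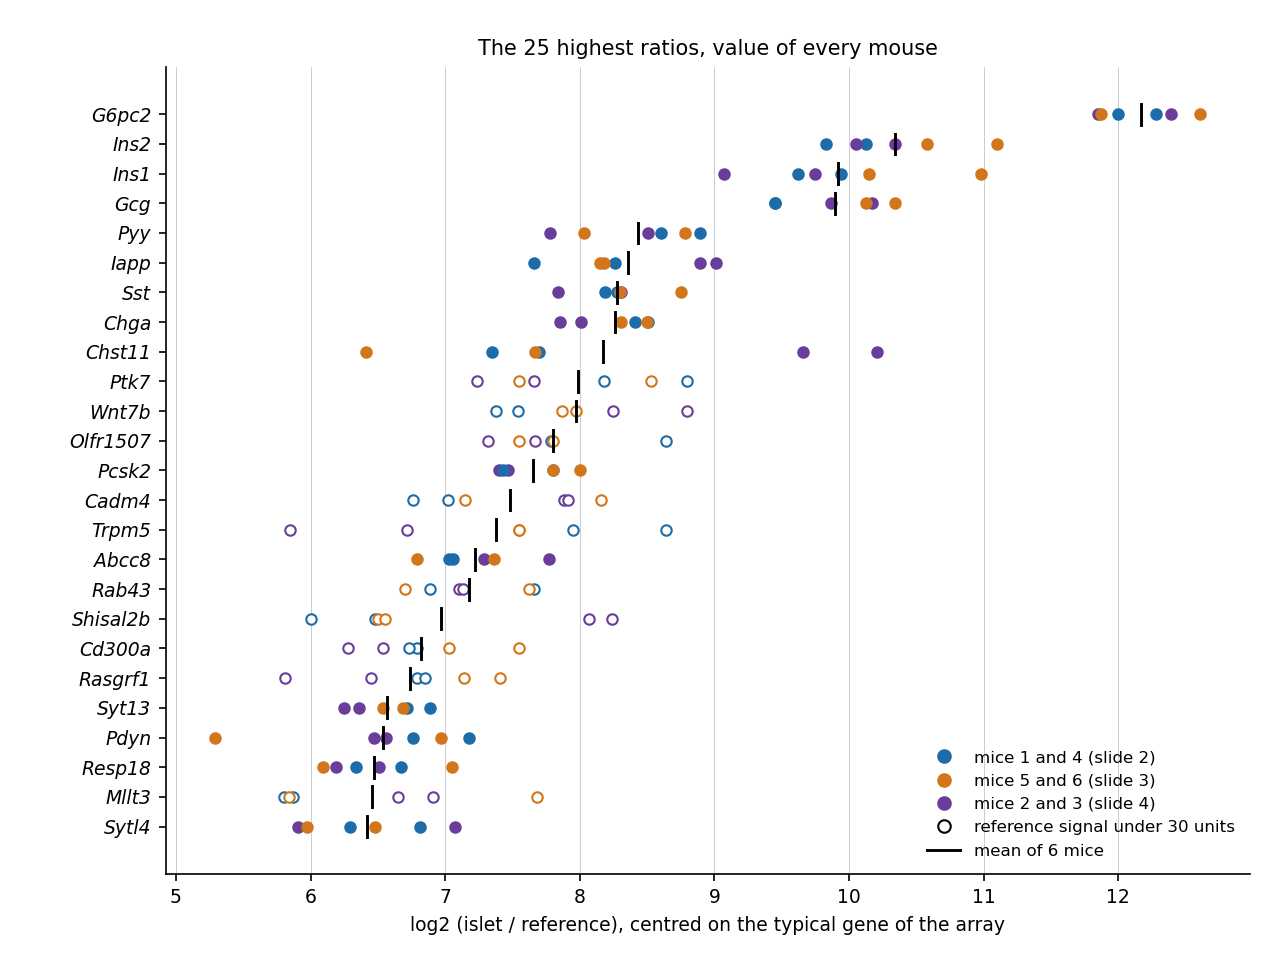
Each row is 1 of the 25 genes with the highest mean ratio and each dot the log2 ratio (x axis) of 1 mouse, coloured by slide; open dots mark genes whose mean reference signal was under 30 units. The hormones, G6pc2, Chga and Pcsk2 have filled dots, while Chst11 splits, with the slide 4 mice at 10.21 and 9.66 and the other mice between 6.41 and 7.70.

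Granule proteins formed the second tier. Chga, chromogranin A, an acidic granin that packs hormones into granules, had ratios of 7.85 (mouse 3), 8.36 and 8.51 (mouse 1) at the lowest, median and highest, on net Cy5 of 2261 to 4716 units, and averaged 8.26, 308-fold the typical gene (SE 0.15, adjusted p = 4.05e-13). Chgb, chromogranin B, had the smallest spread named here, 4.75 to 5.07 around 4.90 (SD 0.11). The granule list had 7 of 13 genes on the array tested and all 7 called higher, with a median of 5.58; besides these it held Resp18 at 6.47, Scg3 at 5.77, Scg5 at 5.58, Pcsk1n at 4.96 and Cpe at 3.20. The remaining 6, Scg2, Scgn, Ptprn, Ptprn2, Slc30a8 and Gnas, were read in Cy5 on no array. For Scg2, Ptprn2 and the zinc transporter gene Slc30a8 the probe was at background in the reference too, so these probes gave no measurement in either RNA. Scgn and Ptprn were read in Cy3 on only 1 array, at means of 7.67 and 7.92 units, and Gnas on at most 4.

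Enzymes that mature the precursors were high as a group, 5 of 7 tested and all 5 called higher with a median of 5.58. Pcsk2, the convertase that dominates glucagon processing and finishes insulin, had ratios of 7.40 (mouse 2), 7.63 and 8.00 (mouse 6) and a mean of 7.65, 201-fold the typical gene (SE 0.15, adjusted p = 5.81e-13); its second, dimmer probe gave 5.74. Pcsk1, the convertase that starts insulin processing, averaged 5.80 (range 5.48 to 5.97, adjusted p = 3.33e-12) but on net Cy5 of only 4 to 21 units. Cpe, the carboxypeptidase that trims the cut ends, averaged 3.20 (range 2.80 to 3.88). Scg5, a chaperone of Pcsk2, and Pcsk1n, an inhibitor of Pcsk1, are shared with the granule list. Pam and Qpct, which modify peptide ends, were read in Cy5 on no array.

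Release machinery was read for few of its genes. Of 20 on the array, 5 were tested and all 5 were called higher, with a median of 5.00. Syt13, a synaptotagmin of endocrine cells, had a mean of 6.57 (range 6.25 to 6.89, adjusted p = 1.86e-12), and Sytl4, granuphilin, which docks insulin granules, had 6.42 (range 5.91 to 7.07). Cplx2, a complexin, averaged 2.98. Syn1, a synapsin best known from neurons, averaged 5.00, but its net Cy3 ran from 6131 to 61793 units with slide 4 at 6.08-fold the other arrays, and Cy5 there at 7.50-fold. The SNARE genes Snap25, Vamp2 and Stx1a were read in Cy5 on no array. In Cy3, Snap25 and Stx1a were read on only 1 array each and Vamp2 on at most 5.

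Genes of glucose sensing had 7 of 19 tested, 6 called higher and a median of 5.55. Abcc8, the sulfonylurea receptor subunit of the beta cell potassium channel, had ratios of 6.79 (mouse 5), 7.17 and 7.77 (mouse 3), on net Cy5 of 35 to 53 units and a mean of 7.22 (SE 0.16, adjusted p = 1.86e-12). Trpm5, a calcium-activated cation channel of beta cells, averaged 7.38 with a wide spread (5.85 to 8.64) on a reference of 8 to 32 units. Ero1b, the pancreatic oxidase of disulfide bond formation, averaged 5.55 (range 4.74 to 6.67). Slc2a2, the glucose transporter of rodent beta cells, was bright in both channels, and its ratios of 1.02 to 1.74 around a mean of 1.35 were called higher (SE 0.15, adjusted p = 3.47e-06) yet far lower than those of the genes above. Its net Cy3 was 4458 to 5753 units, so the reference itself gave the Slc2a2 probe much signal. Cltrn, collectrin, a regulator of granule fusion, averaged 1.50, and Pcx, pyruvate carboxylase, had 0.07 (adjusted p = 0.737). Kcnj11, Glp1r and Ucn3 were read in Cy5 on no array. Their probes were nearly dark in the reference too, with Cy3 read on 1 array for Kcnj11, 2 for Ucn3 and none for Glp1r.

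Islet transcription factors were mostly below what the islet channel could read: 3 of 22 were tested. Isl1, a LIM homeodomain factor of all islet endocrine cells, averaged 5.67 (range 5.09 to 6.22, adjusted p = 1.38e-11) and Neurod1, a basic helix-loop-helix activator of insulin, 4.68 (range 4.13 to 5.33, adjusted p = 2.41e-10). Nkx6-1 was read on 3 arrays, just outside the filter. For Pdx1, Mafa and Nkx2-2 both channels were at background on all 6 arrays.

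Of the autoantigens other than insulin, 4 of 11 were tested. G6pc2, Chga and Iapp are those given above. Hspd1, the mitochondrial chaperonin, was lower (mean -1.86, range -2.68 to -1.54, adjusted p = 9.73e-07). Gad1 and Ica1 were read on too few arrays, and Gad2, Ptprn, Ptprn2, Slc30a8 and Prph on none. Of these unread genes, Cy3 was read on all 6 arrays for Gad2, on 1 for Ptprn and Prph and on none for the others.

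Among the 25 highest ratios, 14 genes belong to one of the islet lists and 11 do not. For 10 of the 25 the mean reference signal was under 30 units: Ptk7, Wnt7b, Olfr1507, Cadm4, Trpm5, Rab43, Shisal2b, Cd300a, Rasgrf1 and Mllt3. Ptk7, a receptor-like pseudokinase, averaged 7.99 on net Cy5 of 3 to 46.5 and net Cy3 of 8 to 30 units. Wnt7b, a secreted Wnt ligand, averaged 7.97 on 15 to 116 and 12 to 34 units. For such genes both signals lie near the floor of 10 units, and the ratio mainly says that the reference was almost dark. With normexp and loess, which shrinks dim signals, Ptk7 had 0.90, Wnt7b 1.29, Olfr1507 0.68, Cadm4 0.59, Trpm5 0.55 and Shisal2b 0.53, all still called. Rab43 (0.18, adjusted p = 0.260), Cd300a (0.16, adjusted p = 0.187), Rasgrf1 (0.16, adjusted p = 0.174) and Mllt3 (0.10, adjusted p = 0.175) were then not called. Of the dim islet genes above, Abcc8 had 1.30, Isl1 0.71, Ero1b 0.46, Neurod1 0.41 and Pcsk1 0.36 on that scale, all still called. Chst11, a chondroitin sulfotransferase, ranked 9 with a mean of 8.17, an SD of 1.46 and its highest values on slide 4, where its Cy5 was 9.41-fold that of the other arrays; its other probes were read in Cy5 on no array. Pdyn, the dynorphin precursor, averaged 6.54, with mouse 6 lowest at 5.29 and a median of 6.66.

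Across the 1564 genes the ratio had a Spearman correlation of -0.80 with mean net Cy3 and of 0.0994 with mean net Cy5, a description in which ratio and Cy3 share the same values. The order of the ratios thus followed how bright the reference was more closely than how bright the islet was.

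The protein-folding machinery of the endoplasmic reticulum stood moderately above the typical gene. Of 33 genes on the array 22 were tested, 17 called higher, 10 of them at least 2-fold, and none lower, with a median of 0.86 (0.57 with normexp and loess). Behind Ero1b came Hyou1, a chaperone, at 2.29 (range 1.79 to 2.75), Spcs3, a signal peptidase subunit, at 1.73, Manf, a secreted stress protein, at 1.66, and the co-chaperones Dnajb9 at 1.58 and Dnajc3 at 1.50. Hspa5, the master chaperone BiP, averaged 1.02 (SD 0.65, adjusted p = 0.00106). Spcs2 at -0.04, Ssr3 at -0.22 (1.24 with normexp and loess) and Herpud1 at -0.34 were not called, although Herpud1 was called lower without mouse 2 (-0.51, adjusted p = 0.0149).

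**Figure D4:**
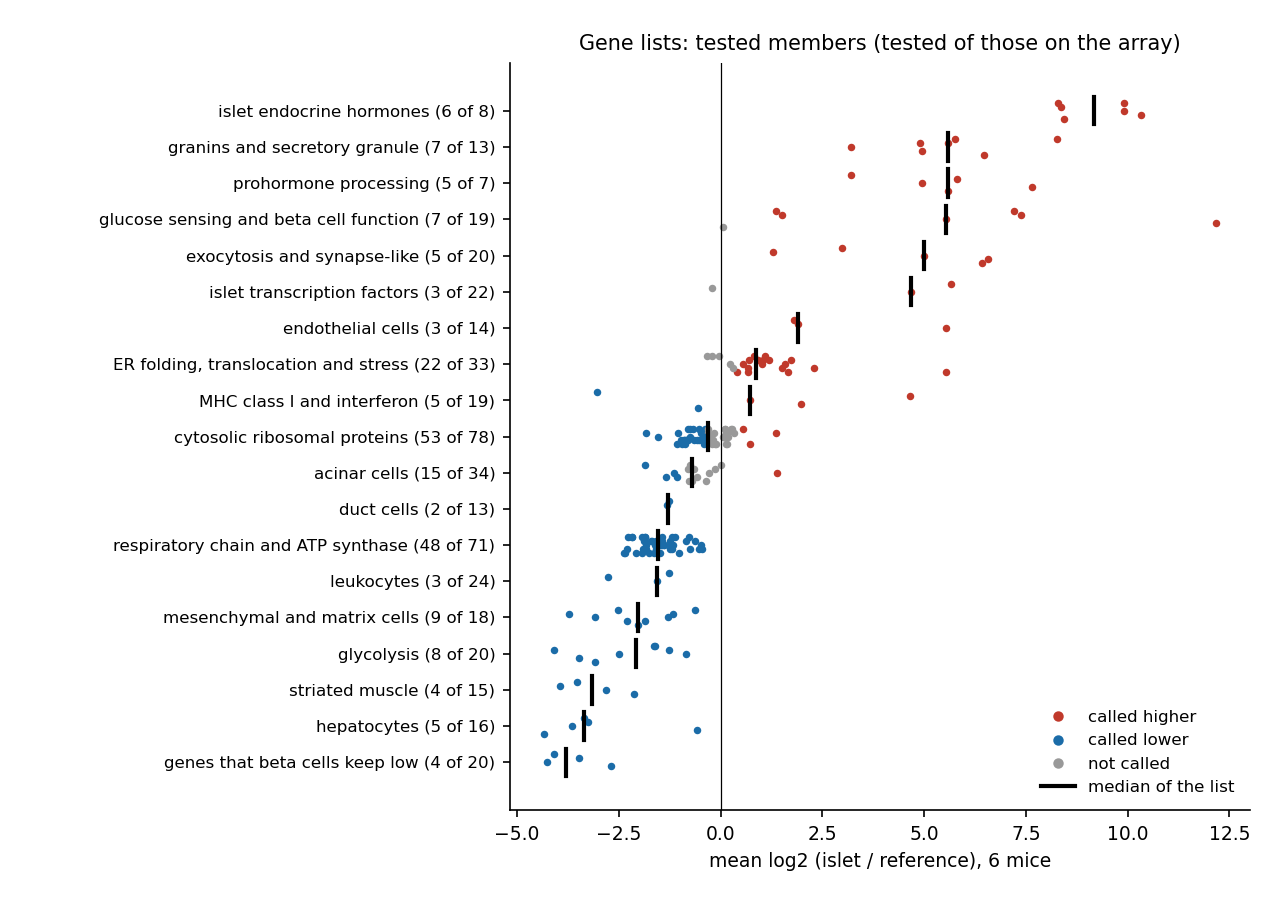
Each row is a gene list, labelled with the number of genes tested of those on the array; dots are the mean log2 ratios of its tested members over the 6 mice, coloured by call, and the bar is the list's median. Hormone, granule and processing genes lie wholly to the right of 0, respiratory chain and glycolysis genes wholly to the left, and acinar and ribosomal genes on both sides.

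Acinar genes, which encode the digestive enzymes of the tissue around the islets, differed most between mice. Of 34 on the array 15 were tested; 1 was called higher (Dmbt1, 1.38, or -0.02 with normexp and loess), 4 lower and 10 neither, and the list median of -0.70 was 1.24 with normexp and loess. The list's median was -1.90, -1.32, -2.59, 0.33, 1.71 and -0.58 in mice 1 to 6, and 14 of the 15 genes were highest in mouse 5. Reg1, a secreted regenerating-family protein, ran from -3.54 (mouse 3) to 3.34 (mouse 5), Pnlip, pancreatic lipase, from -2.95 to 2.73 and Cpb1, carboxypeptidase B, from -2.85 to 2.84 in the same mice. Amy1, an amylase, ran from -3.74 to 1.66 and averaged -1.86 (adjusted p = 0.00873), a direction that turned to 2.62 with normexp and loess and a call that was lost without slide 4 (-1.09, adjusted p = 0.0888). Without mouse 5, Pnlip (-1.47, adjusted p = 0.0120), Cpb1 (-1.35, adjusted p = 0.0131), Prss3, Sycn and Rnase1 were called lower too, whereas the call of Cela3b (-1.14) was lost without mouse 1, 2, 3 or 6 (-1.23 to -0.76). Acinar probes held between 0.166% and 4.93% of the net Cy5 of an array, highest in mouse 5 and next in mouse 4 at 2.13%. Their part in other values of those mice was not tested; for the hormones, which held 10.0% to 19.2%, mouse 5 was not the lowest for Ins2, Gcg or Sst.

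**Figure D5:**
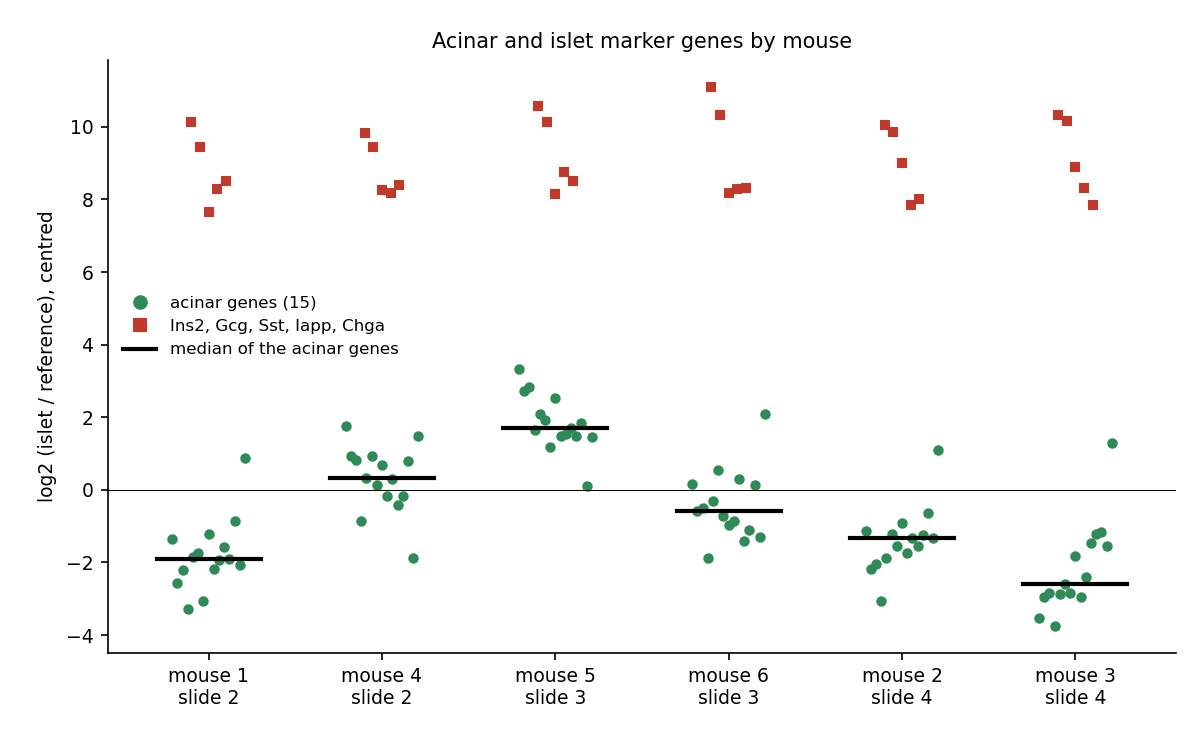
Log2 ratios (y axis) of the 15 acinar genes and the 5 islet markers are shown for each of the 6 mice (x axis, ordered by slide). The islet markers stay between 7.66 and 11.10 in all mice, while the acinar genes are mostly below 0 in mouse 3 and all above 0 in mouse 5.

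Of the 10 genes with the largest SD over mice among those read on all 6 arrays, 6 were acinar: Reg1 (SD 2.45), Pnlip (2.24), Cpb1 (2.17), Amy1 (2.02), Prss3 (1.81) and Cpa1 (1.74), each highest in mouse 5. The other 4 had their highest slide mean on slide 4, but mice of the same slide could differ as well. Churc1 averaged 4.92 on slide 4, 2.92 on slide 3 and 2.02 on slide 2, where mouse 4 was at 0.11. The parts of slide and mouse were not tested. Inmt (SD 1.93), Churc1 (1.85), Eif4ebp2 (1.75) and Slc25a39 (1.72) were highest in a slide 4 mouse and lowest in mouse 4, and Eif4ebp2, for example, averaged 3.66 on slide 4, 0.88 on slide 3 and 0.64 on slide 2.

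Markers of other cell types were mostly unread or lower. Among leukocyte genes 20 of 24 were read in Cy5 on no array. That count does not set them apart, since only 3164 of 17016 gene symbols were read in Cy5 on at least 1 array. For some, such as Cd3g and Cd79a, Cy3 was read on no array either. The 3 tested leukocyte genes were lower. Lyz2, lysozyme of macrophages and neutrophils, was at -2.77, Srgn, a granule proteoglycan, at -1.56 and Ctss, a cathepsin of antigen-presenting cells, at -1.26. All probes of the leukocyte list together held 0.0355% to 0.0736% of the net Cy5 of an array. For Ptprc, the pan-leukocyte gene, the reference was bright enough to set a bound, with islets at least 1.47-fold lower than the typical gene's ratio. Here and below, the bound is the mean ratio that a net Cy5 at the floor of 10 units would give, or the probe's own Cy5 where that was higher. The 10th percentile of net Cy5 among probes well above background was 8.5 to 10 units on these arrays.

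Endothelial genes were the exception: 3 of 14 were tested and all 3 were called higher, with a median of 1.89. Kdr and Flt1, receptors for vascular endothelial growth factor, averaged 1.89 (range 1.53 to 2.24, adjusted p = 1.70e-07) and 1.80 (range 1.29 to 2.57, adjusted p = 1.76e-06), and with normexp and loess 0.34 and 0.03, the latter not called (adjusted p = 0.750). Plvap, a protein of fenestrated endothelium, averaged 5.54 (range 4.17 to 6.16), but its net Cy3 ran from 218 to 11542 units with slide 4 at 19.2-fold the other arrays and Cy5 there at 18.3-fold. Pecam1, Cdh5 and 7 other endothelial genes were read in Cy5 on no array. Of these, Pecam1, Tek and Eng were not read in Cy3 either, while Cdh5 was read there on all 6 arrays.

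All 9 tested of 18 mesenchymal and matrix genes were lower, with a median of -2.03, from Acta2 at -0.64 (0.21 with normexp and loess) to Col1a1 at -3.73. With normexp and loess 5 of the 9 were still called lower, with a median of -0.43, and Acta2, Col3a1 (-0.24, adjusted p = 0.289), Dcn (-0.13, adjusted p = 0.444) and Sparc (-0.09, adjusted p = 0.310) were not called. The call of Acta2 was lost without mouse 3 (-0.65), 4 (-0.47) or 6 (-0.44). Both tested duct genes were lower, Krt8 at -1.28 and Spp1 at -1.32 (-0.17 with normexp and loess, adjusted p = 0.418, not called), and Krt19 and Sox9 were read in Cy5 on no array. Genes of neurons and glia, of fetal tissue and of cell division (0 of 18 tested) gave no tested member, so their level in islets is known only to be under what the Cy5 channel read.

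The foot of the ranking held genes of other organs that were very bright in the reference. Kap, a kidney androgen-regulated protein, averaged -4.58 (SE 0.17, adjusted p = 1.37e-10), the nuclease gene Dnase1 -4.58, Myl1, a myosin light chain of fast muscle, -4.52, Mup1, a urinary protein made in liver, -4.49 and Pip, of exocrine glands, -4.48. The 15 lowest, which also include Lipf, Cyp3a41a, Gsta3, Fgg, Fabp1, Fabp2 and Prb1, had mean net Cy5 of 9.42 to 48.3 units against 28200 to 139000 in Cy3. Their Cy5 was 0.0325% to 0.0409% of their Cy3. Among the 137 probes with Cy3 over 20000 units that share was 0.0377% at the 10th percentile and 0.167% at the median, so the lowest ratios sit at the low edge of what bright-reference spots gave in the islet channel. The part of such spots' own brightness in their Cy5 was not tested, and these ratios are no measure of how little of the transcript islets held. Probes for Mup1, Cyp3a41a, Prb1, Amy1 and Prss3 may read near-identical family members. Hepatocyte genes had 5 of 16 tested, all lower with a median of -3.36, and striated muscle 4 of 15, all lower with a median of -3.17 (-0.01 with normexp and loess). Without Cy5 on any array but with Cy3 on all, Hpx of liver was at least 9.77-fold lower, Fgb at least 8.06-fold, Ldhc of testis at least 7.29-fold and Acta1 of muscle at least 3.58-fold.

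Genes that beta cells are known to keep low had 4 of 20 tested, and all 4 were lower, with a median of -3.79 (-0.90 with normexp and loess). Ldha, lactate dehydrogenase A, had ratios of -3.96, -3.38 and -3.26 at the lowest, median and highest mouse and averaged -3.48 (SE 0.15, adjusted p = 4.56e-10). Mgst1, a glutathione transferase, averaged -4.27 and Zfp36l1, an RNA-binding protein, -2.70. Another 13 were read in Cy5 on no array, among them Cat, catalase, at least 9.66-fold lower, and Hsd11b1, at least 3.50-fold lower.

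Glycolysis genes had 8 of 20 tested, and all 8 were lower with a median of -2.07, of which 4 were called lower and 1 higher with normexp and loess, where Aldoa turned from -1.61 to 1.66 and Pfkm from -1.64 to 0.12. Respiratory chain and ATP synthase genes had 48 of 71 tested and all 48 called lower, from Cox5a at -2.37 to Ndufs5 at -0.47, with a median of -1.53 that became 0.00 with normexp and loess, where 14 were called higher, 16 lower and 18 neither. Near the threshold, the call of Ndufa1 (-0.48) was lost without mouse 2, 3, 5 or 6 (-0.46 to -0.39) and that of Atp5e (-0.52) without mouse 1, 4 or 5 (-0.48 to -0.38). Cytosolic ribosomal protein genes lay closer to the typical gene: of 53 tested, 3 were higher (Rpl8 at 1.37, Rplp1 at 0.72 and Rps27a at 0.54), 26 lower and 24 neither, and the median of -0.32 turned to 1.05 with normexp and loess, where 38 were higher and 1 lower. Rpl8 is the gene whose reference signal was low on slide 4. The direction of these abundant families against the reference therefore depends on the scale.

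Of the antioxidant genes, 6 of 16 were tested, 4 called lower and Mt2, a metallothionein, higher at 0.94 (range -0.14 to 1.73, adjusted p = 0.00256). Sod2, mitochondrial superoxide dismutase, averaged -1.98, Txn1, thioredoxin, -1.68 and Sod1, the cytosolic dismutase, -1.41 (0.96 with normexp and loess). Gpx1, a glutathione peroxidase, was read in Cy5 on no array and was at least 4.78-fold lower. The class I antigen presentation list had 5 of 19 tested. Higher were H2-D1 at 4.66 (1.52 with normexp and loess), H2-M3 at 1.98 (0.08 with normexp and loess, limma adjusted p = 0.531, not called) and H2-K1 at 0.73. Psme2 at -0.56 and B2m at -3.05 were lower, and the call of Psme2 was lost without mouse 1 (-0.44) or 5 (-0.45). H2-D1 was read in Cy5 on 4 arrays, with net Cy5 of 6 to 201 units over the 6, and its second probe on none. On slide 4 its Cy5 was 3.69-fold and its Cy3 2.44-fold that of the other arrays. Of immediate early genes, Btg2 at 0.79, Jund at 0.73 and Junb at 0.39 were called higher, though Btg2 and Junb turned to -0.04 and -0.02 with normexp and loess, the call of Junb was lost without mouse 2, 3, 4 or 6 (0.31 to 0.41), Nr4a1 at -0.02 was not called, and Fos, Egr1 and Jun were read in Cy5 on no array. Common control genes gave little: Eef1a1 (0.03) and Hprt (-0.13, or 1.18 with normexp and loess) were not called, Ubb was at -0.97 (0.01 with normexp and loess), and the probes for Actb and Gapdh were read in Cy5 on no array, with mean Cy3 of 27.6 and 225 units.

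The same ratios on the NOD arrays showed where NOD.B10 islets differed from NOD islets. Over 1542 genes read on at least 4 of 6 arrays in each strain, limma called 405 higher (26.3%) and 226 lower (14.7%) in NOD.B10 than in NOD, of which 276 (17.9%) and 145 (9.4%) differed at least 2-fold, and the ranges of the strains did not overlap for 229 (14.9%). With slide as a fixed term 219 were called higher and 160 lower. Slides 2 and 3 held 2 mice of each strain, so differences within them are given as well. Each of the 8 leading genes had a higher mean ratio in NOD.B10, and 7 were called. Ins2 had 9.84, 10.26 and 11.12 at the lowest, median and highest in NOD.B10 and 7.57, 8.57 and 9.44 in NOD, without overlap. The difference of 1.86 (SE 0.33, adjusted p = 0.000533) was 1.60 within slide 2 and 1.89 within slide 3. Iapp differed by 2.14 (SE 0.36, adjusted p = 0.000323, no overlap; 1.65 and 1.59 within the slides), and Chga by 1.91 (SE 0.30, adjusted p = 0.000195, no overlap; 1.86 and 2.04).

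Pyy differed by 1.04 (adjusted p = 0.00254, no overlap), which was -0.07 with normexp and loess. Ins1 differed by 1.39 (adjusted p = 0.00712), G6pc2 by 1.29 (adjusted p = 0.0104) and Sst by 0.83 (adjusted p = 0.0157), each with overlapping ranges. With slide as a fixed term neither G6pc2 (1.26, adjusted p = 0.0643) nor Sst (0.74, adjusted p = 0.0925) was called, and neither was with normexp and loess. Gcg had 9.46, 10.03 and 10.35 in NOD.B10 and 8.65, 9.22 and 10.13 in NOD, and its difference of 0.62 was not called (SE 0.26, adjusted p = 0.0643; 0.25 and 0.46 within the slides), although it was with normexp and loess (1.30, adjusted p = 0.0170). It was also called without NOD.B10 mouse 1 or 4 (0.71 each) or NOD mouse 5 (0.78). Whether alpha and beta cell genes differed by unequal amounts was not tested. These differences are relative to the typical gene of each array: mean net Cy5 was 14200 units in NOD.B10 and 12500 in NOD for Ins2, but 12400 and 28100 for Gcg and 3400 and 3490 for Chga. G6pc2 ranked 1 in both strains, and Gcg ranked 4 in NOD.B10 and 2 in NOD.

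The largest difference in favour of NOD.B10 was that of Slc2a2, with 1.05, 1.34 and 1.76 in NOD.B10 against -3.10, -2.15 and 0.74 in NOD and no overlap. It was 3.27 (SE 0.49, adjusted p = 0.000135; 2.50 and 3.46 within the slides), and the gene ranked 278 in NOD.B10 and 1375 in NOD. Pcsk2 (1.31), Syt13 (2.05), Isl1 (1.85) and Scg5 (1.33) were also higher without overlap, and Pcsk1 (1.84), Abcc8 (1.79) and Sytl4 (2.65) with overlap. Chgb was not called (0.65, adjusted p = 0.0590). Differences of this size were not confined to islet genes. Of the 15 genes at the foot of the ranking, all but Prb1 (0.60, limma adjusted p = 0.167) were called higher in NOD.B10. They ran from Mgst1 (0.79) to Mup1 (1.59), with no overlap for Mup1 and Pip (1.57). Chst11 (3.13), Vstm2l (2.66), Maob (2.47) and Ppp1r1a (2.35) were among the 10 largest, as were the acinar genes Cpb1 (2.80), Amy1 (2.68) and Pnlip (2.50) and the proline-rich protein gene Prp2 (2.66). Within slides 2 and 3 the differences were 1.88 and 2.29 for Chst11, 1.56 and 1.36 for Prp2, 0.75 and 2.00 for Ppp1r1a and 2.91 and 2.90 for Maob. On slide 4, which held no NOD array, the Cy5 of Prp2 was 7.61-fold that of the other NOD.B10 arrays. With normexp and loess the strain differences of Chst11 (2.22, adjusted p = 0.0562), Vstm2l (0.77, adjusted p = 0.0596) and Sytl4 (0.99, adjusted p = 0.212) were not called, and Ppp1r1a had 0.78, still called. The call of Pnlip was lost without NOD.B10 mouse 4, 5 or 6 or NOD mouse 2, 3 or 6 (1.80 to 2.47). The acinar probes held 0.137% to 1.26% of net Cy5 on the NOD arrays and 0.166% to 4.93% on those of NOD.B10, and their part in these differences was not tested.

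In the other direction, 3 genes of the leukocyte list and B2m of the class I list had the largest differences. Ctss was lower by 4.10 in NOD.B10, that is 17.1-fold higher in NOD (SE 0.33, adjusted p = 3.65e-07), B2m 16.6-fold (SE 0.24, adjusted p = 8.81e-09), Lyz2 14.3-fold (SE 0.22, adjusted p = 8.81e-09) and Srgn 13.3-fold (SE 0.32, adjusted p = 8.63e-07), none with overlap. Within slide 2 and slide 3 the Ctss difference was -3.98 and -3.15 and that of B2m -3.72 and -4.36. Shisa5, Limd2, Mbnl1, Ctsh, Zfp36l1 and Thy1 made up the 10, with differences from -3.44 to -2.64, and none of them is in the leukocyte or class I list. The 3 tested leukocyte genes thus set NOD.B10 apart at the low end, as the share of net Cy5 on all leukocyte probes did: at most 0.0736% in NOD.B10 and at least 0.447% in NOD. Hormone probes held 10.0% to 19.2% and 5.70% to 15.4%, and ribosomal probes 1.95% to 3.59% and 6.98% to 15.2%. Fewer genes were read in NOD.B10, and the part of cell makeup and of this difference in signal in the strain differences was not tested.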

How the data were processed

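Per the file headers, Agilent's Feature Extraction 10.5.1.1 made the deposited intensity values (median spot signal and local background, scanner units), which are not normalised. Its log10 ratio, deposited beside them, is of processed Cy5 over Cy3 after the software's background, spatial and dye corrections, per the file headers. The log2 values in the authors' series table equal that ratio on another base (321362 values compared, 100% equal within 0.01), as the values show and no label states. Quality marks are the scanner's. The scanner's ratio and normexp with loess in limma served as alternatives. Probe accessions were matched to RefSeq symbols of GRCm38.p6, which named 24375 of 41174 non-control probes; of the 2034 probes that passed the filter, 376 had no symbol and are not described. Outlier spots (160 to 220 per NOD.B10 array) were left out where another spot of the probe remained, and no spot was saturated.

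Mean log2 ratios of net signals (floor 10, each array centred on the median of tested genes) were tested against 0 over the 6 NOD.B10 arrays, and between strains over 12 arrays, with limma 3.58.1 under R 4.3.3 (lmFit, eBayes, Benjamini-Hochberg over all genes tested, threshold 0.05, two-sided). On simulated data for the test against 0, with 200 of 1564 genes changed per size, 17% of log2 changes of 0.5, 86.5% of 1 and 99.5% of 2 were recovered. Precision rests on the number of arrays and on how far a signal lay above background, since arrays give no counts.

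Named were the 25 highest and 15 lowest genes called on all 6 arrays with 1 sign, up to 6 highest and 3 lowest of each list, a fixed set (hormones, granins, Pcsk1, Pcsk2, Cpe, Actb, Gapdh), the 10 largest SDs over mice, the 10 largest strain differences each way, and up to 4 marker genes of other cell types read only in Cy3; clones and predicted genes are not named. Hspa5, other genes named as unread and those given for slide 4 were added after their values were seen. Members and lists were chosen with earlier results of these data known. Some genes of the lists are counted in them but not reported here by name.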

Additional observations from a re-analysis of the deposited data

Results flagged for a closer look

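In 7 of 164 named genes, 1 NOD.B10 mouse stood apart from the other 5 by the gap to its nearest neighbour over the whole range; chance alone flags about 1 in 20 such groups. Olfr1507 was 8.64 in mouse 4 against 7.32 to 7.80 in the others, on signals near the floor. Mouse 5 was lowest for Kap at -5.35 (others -4.60 to -4.27) and for Fgg at -5.04 (others -4.34 to -4.05), and highest for the acinar gene Pla2g1b, a phospholipase, at 0.10 (others -2.08 to -1.30). Vim, the mesenchymal intermediate filament gene, was -1.40 in mouse 6 against -2.07 to -1.88. Mouse 2 was highest for Herpud1 at 0.52 (others -0.64 to -0.22) and for Rpl38 at 0.50 (others 0.15 to 0.28).

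The ratio to the reference differed between strains, NOD.B10 minus NOD, by limma's test, for the 10 largest differences each way. Higher in NOD.B10 were Slc2a2 by 3.27, Chst11 by 3.13, Cpb1 by 2.80, Amy1 by 2.68, Prp2 by 2.66, Vstm2l by 2.66, Sytl4 by 2.65, Pnlip by 2.50, Maob by 2.47 and Ppp1r1a by 2.35. Lower were Ctss (-4.10), B2m (-4.05), Lyz2 (-3.84), Srgn (-3.73), Shisa5 (-3.44), Limd2 (-3.19), Mbnl1 (-2.97), Ctsh (-2.78), Zfp36l1 (-2.65) and Thy1 (-2.64).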

How the results depend on the processing

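Without centring, 14 genes were higher and 1542 lower (9 and 1535 at least 2-fold), since the median ratio moved by -7.04; with normexp and loess on its own zero, where the median of all genes moved by 0.27, the lower genes numbered 132, of which 0 reached 2-fold. Centred on that median, an alternative added after seeing the data, 450 were higher and 394 lower (193 and 23 at least 2-fold). Requiring Cy5 above background on all 6 arrays left 862 genes and 306 higher and 317 lower (214 and 184 at least 2-fold); on at least 1 array, 3164 genes gave 1295 and 1293 (969 and 791). A mean net Cy5 of at least 20 units, added after seeing the data, left 828 genes with 304 and 302 (226 and 176). Without 1 mouse the counts were 537 to 547 higher and 539 to 551 lower, and 371 to 382 and 323 to 340 at least 2-fold. Without slide 4 they were 527 and 540. Without the 41 genes whose reference stood apart there, also added after seeing the data, they were 521 and 565 of 1523.

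Between strains, slide as a fixed term gave 219 higher and 160 lower, the 838 genes read on all 12 arrays 269 higher and 138 lower, and leaving out 1 mouse 321 to 507 and 203 to 258. Strain pairs that share a number are not stated to be paired: with the replicate number as a block 433 genes were higher and 220 lower. The deviations of arrays that share a number correlated at -0.00666 to 0.235. For only 1 number did the NOD.B10 array correlate best with the NOD array of the same number. Leaving out slide 4, an alternative added after seeing the data, gave 313 and 204.

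With normexp and loess these turned direction: Dmbt1 -0.02, Cpa1 3.11, Sycn 2.34, Cela3b 1.06, Amy1 2.62, Acta2 0.21, Hbb-bt 0.61, Ahsg 0.14, Tnni2 1.47, Tnnc2 0.52, Ssr3 1.24, Aldoa 1.66, Pfkm 0.12, Ndufs5 0.18, Ndufa1 1.77, Atp5e 0.68, Cox8a 0.19, Ndufa7 0.15, Cox5a 0.02, Rpl8 -0.07, Rpl7 0.31, Btg2 -0.04, Junb -0.02, Sod1 0.96, Hprt 1.18, Ubb 0.01, and the list medians of acinar (1.24), red blood cell (0.61), ribosomal (1.05), immediate early (-0.03) and housekeeping genes (1.18), and the strain difference of Pyy (-0.07). With the scanner's ratio, not centred and centred, Atp5e was 0.05 and 0.02 and the housekeeping median 0.22 and 0.19. The class I list median was -0.46 with Cy5 on all 6 arrays; with Cy5 on at least 1 array Pcx was -0.47, Junb -0.14 and Eef1a1 -0.50. Spcs2 was 0.76 with the median over probes, and Prdx2 0.04 on slide 4 alone. The cause was not tested. The signal over background of the islet channel limits all values near the floor.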
